A study of Mus musculus with 60 samples.

Results

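The clustered protocadherins are 3 arrays of related genes for cadherin-like adhesion proteins, named alpha, beta and gamma, that lie next to each other on mouse chromosome 18. Members were taken by symbol from the expression table: 58 of its 24508 gene symbols, of which 14 are alpha (Pcdha1 to Pcdha12, Pcdhac1 and Pcdhac2), 22 are beta and 22 are gamma. The 5 members Pcdhac1, Pcdhac2, Pcdhgc3, Pcdhgc4 and Pcdhgc5 are called C-type, and the other 53 are called variable here. The tissue was hippocampus of 30-week-old mice on a background that mixes CBA and C57BL/6. WT mice were compared with R6/1 mice, a Huntington's disease model in which a transgene expresses the first exon of human huntingtin with an expanded CAG repeat under the human promoter. The RNA libraries came from independent biological replicates, 9 per genotype, and lamin B1 ChIP-seq from pools of 5 mice per replicate. No other allele or treatment is in the labels.

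A neuron chooses a few variable isoforms by switching on single promoters, and the chosen set of proteins on the cell surface lets the neuron tell its own branches from those of other neurons. Each alpha or gamma promoter drives a long first exon, coding for the extracellular and membrane-spanning parts, which is spliced to constant exons shared by the whole cluster. Beta genes have 1 coding exon each and no constant exons. Promoter choice depends on the insulator protein CTCF, on cohesin and on DNA methylation. The C-type promoters are under different control from the variable ones, and their isoforms are found in most neurons of a class rather than in a scattered few.

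On build NCBIM37 the alpha cluster spans chromosome 18, 37089939 to 37347311, and the beta cluster 37424652 to 37681073, both on the plus strand. The gamma cluster is annotated from 37833989 to 38001527 on the same strand. The alpha and gamma clusters are annotated there almost wholly as single genes with 10 transcripts each, so most of their members have no coordinates of their own. Levels are given in RPKM, the authors' reads per kilobase after scaling for depth. The lengths behind the deposited values, recovered from the authors' table, were those of full transcripts for alpha (5206 to 5422 bp) and gamma (4480 to 5079 bp), constant exons included. Pcdhb7, by comparison, was divided by 3506 bp, the length of its only exon. Whether reads in the constant exons were counted to any member is not given in the sources used here, so the per-length level of an alpha or gamma member cannot be set directly against that of a beta member. Reads that fit several near-identical members could also have been split or dropped.

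The libraries held between 12299434 and 16457022 reads on genes in WT and between 13260311 and 16736544 in R6/1. Mouse Htt (17.6 ± 1.69 RPKM in WT, 18.3 ± 1.72 RPKM in R6/1; mean ± SD of 9 libraries each) does not check the genotype labels, as the transgene is human. Of the 58 members, 44 had a mean of at least 1 RPKM over the 18 libraries. Pcdha4, Pcdha6 and Pcdha7 were listed at 0 in all 18 libraries. RefSeq also has long read-through genes under related names for these 3, and their rows held 0, 6 and 9 reads over all libraries. A mean of at least 0.5 RPKM, the filter used for testing, left 51 members: 8 alpha, 21 beta and 22 gamma. Pcdha1, Pcdha2, Pcdha8 and Pcdhb1 were detected below it, between 0.118 RPKM for Pcdha8 and 0.489 RPKM for Pcdha2.

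Genotypes were compared with limma on log2(RPKM + 0.5), with p-values adjusted over all 14446 genes that passed the filter. In R6/1, 20 of the 51 tested members were higher, 4 were lower and 27 were not called at an adjusted p under 0.05. The shares were 39.2% higher and 7.84% lower, against 24.8% and 23.5% of all tested genes. Members of the alpha cluster, and those of the gamma cluster, share constant exons and may not be independent. Counts of members are therefore a description, and the difference from all tested genes was not tested. The median log2 fold change was 0.17 over the tested members and 0.0036 over all tested genes. Calls lay in different directions among variable and C-type members, a difference that was not itself tested. Of 46 tested variable members, 20 were higher and 1 was lower (median log2 fold change 0.20). Of the 5 C-type members, 0 were higher and 3 were lower (median -0.18). The genotypes did not overlap in 3 members, Pcdhb7 and Pcdhb12 (higher in R6/1) and Pcdhgc5 (lower), where 5.5% of all tested genes were higher and 6.38% were lower without overlap.

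**Figure D1:**
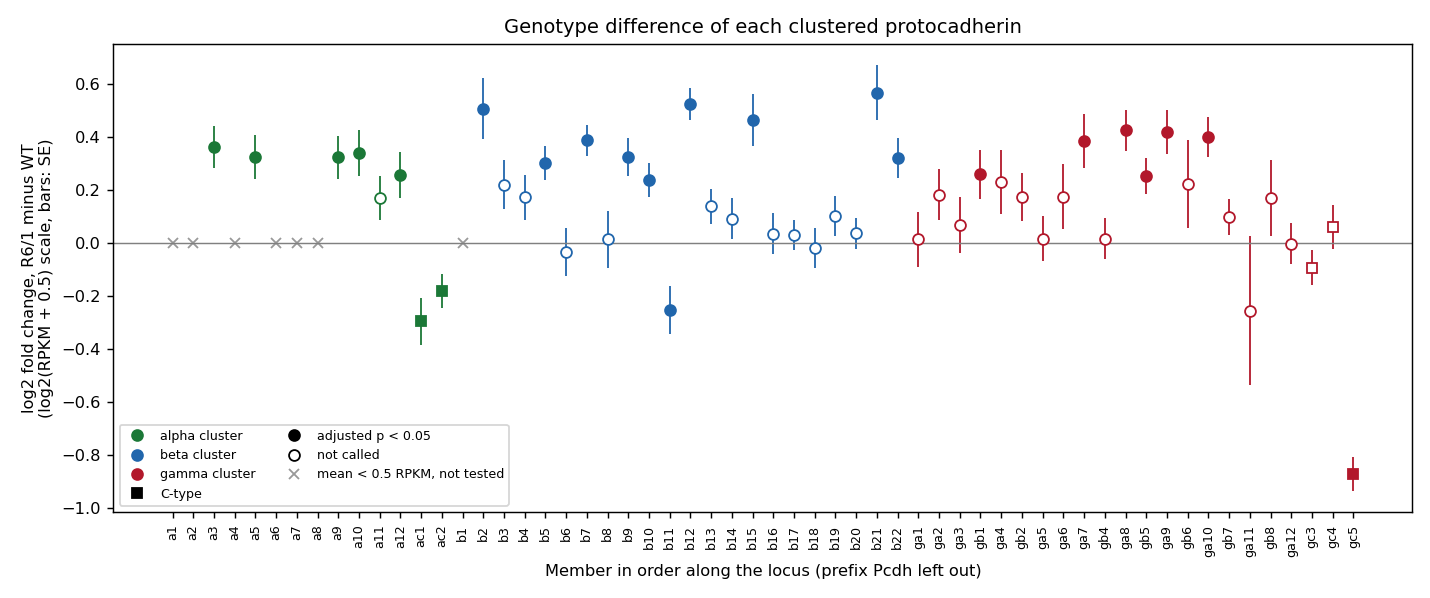
Log2 fold change of each member, R6/1 minus WT on the log2(RPKM + 0.5) scale (vertical axis), with members in their order along the locus (horizontal axis) and colour marking the cluster. Bars are standard errors, squares are C-type members, filled symbols have a limma adjusted p under 0.05, and crosses at 0 mark the 7 members that were not tested. Filled symbols lie above 0 in all 3 clusters, while Pcdhac1, Pcdhac2, Pcdhb11 and Pcdhgc5 are filled below 0.

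The balance of calls depended on how libraries were scaled. When the reads on genes of every library were scaled to the same total (scaling to own totals), the share of all calls that were higher moved from 51.4% to 66.9%. The background was then 35.4% higher and 17.5% lower, and the members counted 6 higher and 1 lower in alpha, 12 higher and 0 lower in beta, and 9 higher and 1 lower in gamma. In the authors' deposited table, 21 members were higher and 4 lower (adjusted p under 0.05), where 20% of its genes were higher and 20.4% lower. The additional member in the authors' deposited table was Pcdhb3 (adjusted p 0.0411), whose limma adjusted p was 0.0506.

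The C-type isoforms are the last promoters of the alpha and gamma arrays. Pcdhgc5, whose isoform is expressed in the postnatal brain, had the highest level of all members in WT and changed most in R6/1. WT libraries ranged from 19.2 RPKM through a median of 23.4 to 24.3 RPKM, and R6/1 libraries from 10.2 through 12.5 to 14.1 RPKM. All 9 R6/1 libraries lay below all 9 WT libraries. The means were 22.6 ± 1.86 RPKM and 12.2 ± 1.36 RPKM (mean ± SD of 9 libraries each), 1.86-fold lower in R6/1. Its log2 fold change was -0.87 (SE 0.0626, adjusted p 1.15e-09 with limma), and it was called lower in all 31 fits and tables compared. The authors' deposited table gave -0.88 (adjusted p 2.34e-39). Each library held between 814 and 1744 reads of Pcdhgc5.

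Pcdhgc3, the first C-type isoform of the gamma array and the most widely expressed of the gamma cluster, was not called. It ranged from 17.0 RPKM through 19.4 to 21.5 in WT and from 14.4 through 18.0 to 20.5 RPKM in R6/1. The ranges overlapped over most of their width, and the log2 fold change was -0.09 (SE 0.0667, adjusted p 0.267 with limma). Within a library, the ratio of Pcdhgc3 to Pcdhgc5 was 0.852 ± 0.0963 in WT and 1.49 ± 0.162 in R6/1 (mean ± SD of 9 libraries each). The ratio lay between 0.723 and 0.983 in WT and between 1.27 and 1.69 in R6/1, with no overlap; it is unaffected by how a library is scaled. Pcdhgc4, which lies between Pcdhgc3 and Pcdhgc5, was at 2.49 ± 0.321 in WT and 2.63 ± 0.399 RPKM in R6/1. Its log2 fold change of 0.06 was not called (adjusted p 0.561 with limma).

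Both C-type members of the alpha cluster were lower in R6/1, by less than Pcdhgc5. Pcdhac2, the alpha isoform expressed in serotonergic neurons among others, ranged from 4.62 RPKM through 5.77 to 6.35 in WT and from 4.20 through 4.92 to 5.85 RPKM in R6/1. The genotypes overlapped, with 8 of 9 R6/1 libraries below the WT median. The log2 fold change was -0.18 (SE 0.0635, adjusted p 0.0234 with limma). That call was lost under quantile normalization and under scaling to own totals, and over all alternatives the limma adjusted p ranged from 0.00685 to 0.118. Pcdhac1, a low member at 20 to 67 reads per library, ranged from 0.502 RPKM through 0.669 to 0.792 in WT and from 0.249 through 0.459 to 0.671 RPKM in R6/1. Its log2 fold change was -0.29 (SE 0.0884, adjusted p 0.0091 with limma), and 8 of 9 R6/1 libraries lay below the WT median.

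**Figure D2:**
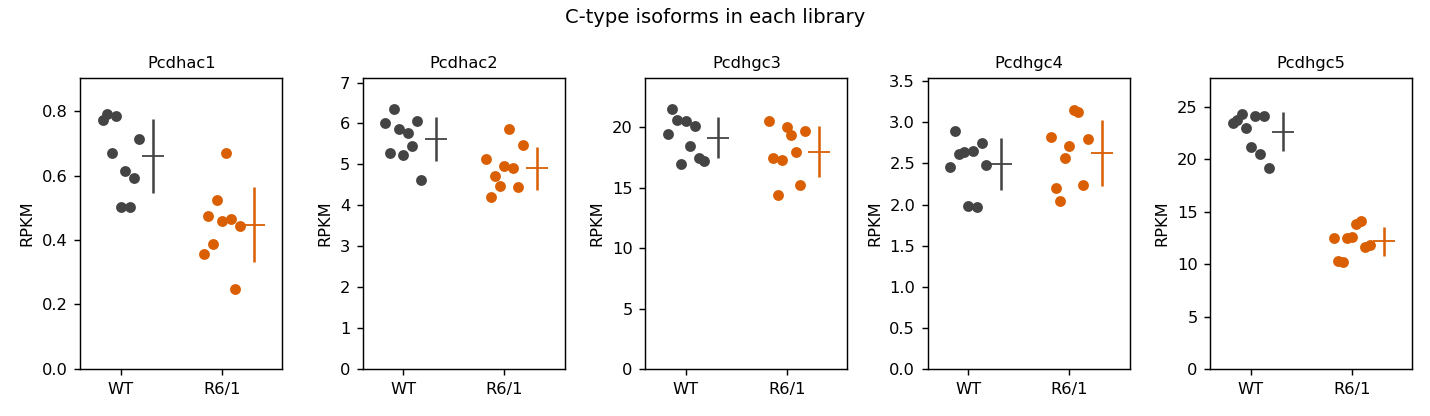
Level of the 5 C-type isoforms in RPKM (vertical axes, each starting at 0) in WT and R6/1 hippocampus, with 1 point per library and the mean with its SD beside the points (n = 9 each). The R6/1 points of Pcdhgc5 lie between 10.2 and 14.1 RPKM, all below the WT points, while those of Pcdhgc3 and Pcdhgc4 overlap the WT points.

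In the alpha cluster, 5 of the 6 tested variable members rose (83.3%, beside 24.8% of all tested genes): Pcdha3, Pcdha5, Pcdha9, Pcdha10 and Pcdha12. These genes give the alternative first exons of the alpha proteins, and all 5 were low per length, at means between 0.693 and 1.36 RPKM. The share of 83.3% leaves out Pcdha1, Pcdha2 and Pcdha8, which were detected below the filter. With no filter on low values, the number of alpha members higher stayed at 5. In the authors' deposited table, 5 of 9 variable alpha members with an adjusted p were higher, where 20% of its genes were higher. Pcdha3 is annotated on build NCBIM37 as a gene of 2 exons and 2439 bp (chromosome 18, 37105801 to 37108685). Its deposited values were divided by 5230 bp, so they do not belong to that annotated gene alone. Pcdha3 ranged from 0.411 RPKM through 0.547 to 0.722 in WT and from 0.707 through 0.823 to 1.1 RPKM in R6/1. Only the edges of these ranges met, and all 9 R6/1 libraries were above the WT median. The log2 fold change of Pcdha3 was 0.36 (SE 0.0782, adjusted p 0.000713 with limma), with 31 to 48 reads per library in WT and 56 to 83 in R6/1.

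Pcdha10 rose by a log2 fold change of 0.34, and Pcdha5 and Pcdha9 each by 0.32 (limma adjusted p 0.00278, 0.00297 and 0.00248). Pcdha12, the highest variable alpha member, went from 1.20 ± 0.261 RPKM to 1.52 ± 0.187 RPKM (mean ± SD of 9 libraries each), a log2 fold change of 0.26 (SE 0.0863, adjusted p 0.0185 with limma). For each of these 4 genes, 9 of 9 R6/1 libraries were above the WT median and the ranges overlapped. The sixth tested variable member, Pcdha11, had a log2 fold change of 0.17 and was not called (adjusted p 0.0979 with limma). The log2 fold changes of these low genes are understated by the pseudocount of 0.5 RPKM: the ratio of the Pcdha3 means was 1.55. A filter at a mean of 2 RPKM left Pcdhac2 as the only tested alpha member.

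The beta cluster held 9 members that rose and 1 that fell among 21 tested (42.9% and 4.76%, beside 24.8% and 23.5% of all tested genes), and 11 were not called. Beta proteins carry the same adhesive cadherin repeats but lack the cytoplasmic domain that alpha and gamma proteins take from their constant exons. Those that rose were Pcdhb2, Pcdhb5, Pcdhb7, Pcdhb9, Pcdhb10, Pcdhb12, Pcdhb15, Pcdhb21 and Pcdhb22. Some lie between members that were not called, but Pcdhb21 and Pcdhb22 are neighbours. Pcdhb9, Pcdhb10 and Pcdhb12 form a run that is broken only by Pcdhb11, which was lower.

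Pcdhb12 (chromosome 18, 37595275 to 37598308) ranged from 2.67 RPKM through 2.88 to 3.29 in WT and from 4.01 through 4.33 to 5.51 RPKM in R6/1. All 9 R6/1 libraries lay above all 9 WT libraries. The log2 fold change was 0.52 (SE 0.0618, adjusted p 9.39e-07 with limma), from means of 2.98 ± 0.257 and 4.51 ± 0.504 RPKM (mean ± SD of 9 libraries each). Pcdhb7 (37501356 to 37504861) ranged from 2.70 RPKM through 3.21 to 3.62 in WT and from 3.98 through 4.28 to 4.94 RPKM in R6/1. It too showed no overlap, with a log2 fold change of 0.39 (SE 0.0584, adjusted p 1.75e-05 with limma).

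Pcdhb21 (37673306 to 37677967) had the largest increase of all members on the log2(RPKM + 0.5) scale; with a pseudocount of 1 RPKM it was 0.44, below the 0.47 of Pcdhb12. It ranged from 0.609 RPKM through 0.802 to 1.41 in WT and from 1.26 through 1.55 to 1.95 RPKM in R6/1. The ranges overlapped, with 9 of 9 R6/1 libraries above the WT median. Its log2 fold change was 0.57 (SE 0.103, adjusted p 0.000132 with limma), on 21 to 51 reads per WT library. Pcdhb2 (37454494 to 37457267) rose by 0.51 (SE 0.114, adjusted p 0.001 with limma), from 1.51 ± 0.415 to 2.34 ± 0.432 RPKM (mean ± SD of 9 libraries each). WT replicate 3 stood at 2.49 RPKM, above the R6/1 median of 2.31 RPKM, and the lowest R6/1 library was at 1.54 RPKM.

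Of the 3 beta members with the highest mean level, 1 was called. Pcdhb9 (37560509 to 37563563) ranged from 4.62 RPKM through 5.82 to 7.41 in WT and from 6.13 through 7.41 to 8.17 RPKM in R6/1, and it rose by 0.32 on the log2 scale (SE 0.0707, adjusted p 0.00079 with limma). Pcdhb17 (37644675 to 37647943) was at 5.79 ± 0.469 in WT and 5.93 ± 0.546 RPKM in R6/1, and Pcdhb20 at 3.84 ± 0.398 and 3.94 ± 0.276 RPKM (mean ± SD of 9 libraries each). The ranges of both overlapped almost wholly, with log2 fold changes of 0.03 and 0.04 (limma adjusted p 0.692 and 0.621). Pcdhb20 (37663926 to 37667476) is annotated as a pseudogene on this build but as protein-coding in RefSeq. The lowest beta member was Pcdhb1, the first of the array, at 0.152 in WT and 0.11 RPKM in R6/1 on 2 to 11 reads per library, and it was not tested.

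Pcdhb11 (37581072 to 37584686) was the only beta member called lower. It ranged from 1.41 RPKM through 1.90 to 2.40 in WT and from 1.25 through 1.52 to 1.94 RPKM in R6/1, with 8 of 9 R6/1 libraries below the WT median. Its log2 fold change was -0.25 (SE 0.0898, adjusted p 0.0258 with limma). The call was lost without WT replicate 2, 3 or 7, without R6/1 replicate 4, with the replicate number as a block, and under quantile normalization or scaling to own totals (limma adjusted p up to 0.0861, and from 0.00847 over all alternatives).

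In the gamma cluster, 6 of the 19 A-type and B-type members rose, none fell and 13 were not called. These are 2 subfamilies of variable first exons that are interspersed along the array. The A type gave 4 of 12 (Pcdhga7, Pcdhga8, Pcdhga9 and Pcdhga10) and the B type 2 of 7 (Pcdhgb1 and Pcdhgb5). With limma, 31.6% of the variable gamma members were higher and 0% lower, beside 24.8% and 23.5% of all tested genes. The C-type isoforms of the cluster, Pcdhgc3, Pcdhgc4 and Pcdhgc5, are given above.

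Pcdhga8 ranged from 2.26 RPKM through 3.07 to 3.75 in WT and from 3.35 through 4.24 to 5.12 RPKM in R6/1. The genotypes overlapped only at the edge. The log2 fold change was 0.43 (SE 0.078, adjusted p 0.000148 with limma). Pcdhga9 rose from 2.05 ± 0.299 to 2.91 ± 0.425 RPKM and Pcdhga10 from 2.11 ± 0.271 to 2.94 ± 0.362 RPKM (mean ± SD of 9 libraries each). Their log2 fold changes were 0.42 and 0.40 (limma adjusted p 0.00035 and 0.000162), and in both genes 9 of 9 R6/1 libraries were above the WT median.

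Pcdhga4 had the highest mean of the variable gamma members. It ranged from 2.38 RPKM through 3.84 to 4.67 in WT and from 2.73 through 4.81 to 5.74 RPKM in R6/1. Its log2 fold change of 0.23 (SE 0.12) was not called (adjusted p 0.122 with limma), but it was called without R6/1 replicate 9 and under scaling to own totals, with a range from 0.0291 to 0.237 over all alternatives. Pcdhgb8, the lowest gamma member, was at 1.03 ± 0.33 in WT and 1.21 ± 0.336 RPKM in R6/1 and was not called (adjusted p 0.339 with limma). RefSeq lists Pcdhgb8 as a transcribed pseudogene.

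Summed over members, the C-type isoforms had a lower mean in R6/1 and the variable groups a higher one. The 5 C-type members together summed to 50.6 ± 3.16 RPKM in WT but 38.2 ± 3.91 RPKM in R6/1 (mean ± SD of 9 libraries each). Their sum lay between 44.3 and 54.6 in WT and between 31.8 and 42.9 RPKM in R6/1, with no overlap. Most of this difference was that of Pcdhgc5: without it, the sum of the other 4 was 27.9 ± 1.77 against 26.0 ± 2.89 RPKM, with overlap. The variable alpha members together went from 5.04 ± 0.689 to 6.84 ± 0.524 RPKM, also with no overlap (4.17 to 6.13 RPKM against 6.38 to 8.0 RPKM). The beta sum went from 52.3 ± 4.27 to 61.8 ± 2.33 RPKM and the sum of variable gamma members from 44.3 ± 3.26 to 51.7 ± 3.56 RPKM, and both overlapped between genotypes.

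The sum of all 58 members was 152 ± 9.92 in WT and 158 ± 7.10 RPKM in R6/1, a difference within the spread between libraries. Its composition differed: the C-type share was 33.3% ± 1.21 in WT and 24.1% ± 1.81 in R6/1 (mean ± SD of 9 libraries each), with no overlap. With Pcdhgc5 left out of both parts of the share, it was 21.6% ± 1.23 and 17.7% ± 1.56, and the genotypes overlapped. Within the gamma cluster, Pcdhgc5 made up 25.5% ± 1.22 of the sum in WT and 14.4% ± 1.20 in R6/1, with no overlap. Pcdhgc3 made up 21.7% ± 1.73 and 21.3% ± 1.96, with overlap. These sums were not tested, and since lengths were defined differently between clusters, shares across clusters describe the deposited values and not numbers of transcripts.

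**Figure D3:**
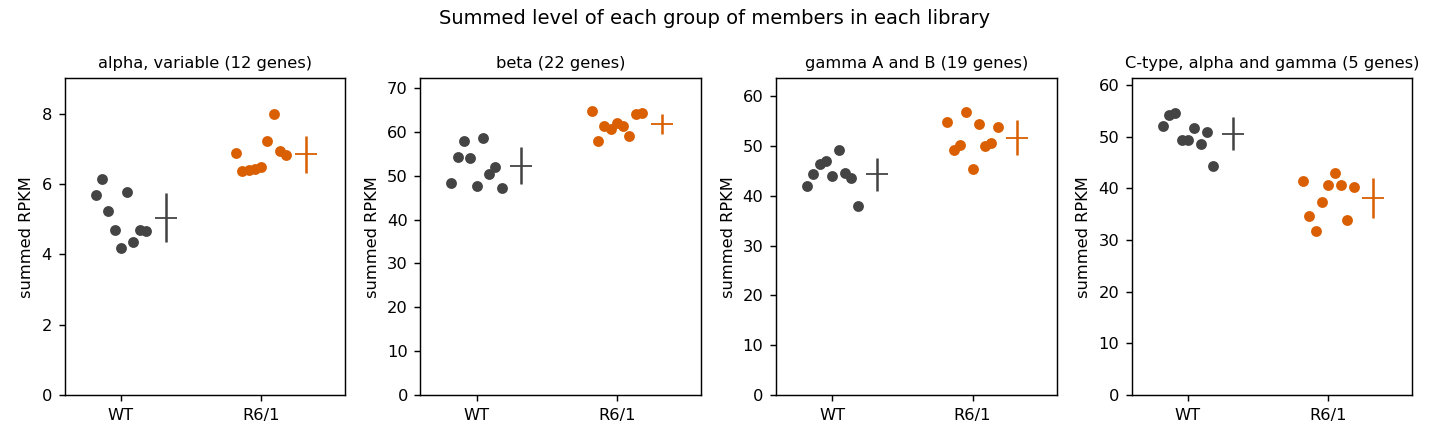
Summed RPKM (vertical axes, each starting at 0) of the variable alpha members, the beta members, the A-type and B-type gamma members and the C-type members in each WT and R6/1 library, with the mean and SD beside the points (n = 9 each). The C-type sums of R6/1 lie between 31.8 and 42.9 RPKM, all below those of WT, and the sums of the other 3 groups have higher means in R6/1.

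The direction of the gamma cluster depended on whether its members were summed or taken singly. The gamma sum with Pcdhgc5 was 88.6 ± 5.31 in WT and 84.5 ± 5.46 RPKM in R6/1 (mean ± SD of 9 libraries each), and the log2 ratio of the means was -0.07. The median log2 fold change over the 22 gamma members was 0.17, and the mean log2 level over members was 0.11 higher in R6/1. In the beta cluster the log2 ratio of the summed means was 0.24 and the median over members 0.17. In the alpha cluster the log2 ratio was 0.11 and the median 0.29, which was 0.17 with no filter on low values and -0.18 with a filter at a mean of 2 RPKM, where Pcdhac2 alone was left.

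Spread between libraries of 1 genotype was compared with the counting error of the reads behind each value. Over the 51 tested members, the median coefficient of variation between libraries was 16.9% in WT and 12.9% in R6/1. The median over members of the ratio of this variation to the counting error was 1.78 in WT and 1.6 in R6/1. More than 2 times the counting error was found for 19 members in WT and 17 in R6/1. Pcdhga11, a gamma A-type member, stood out: it varied from 1.06 to 5.00 RPKM within WT and from 1.03 to 6.06 RPKM within R6/1, a coefficient of variation of 41.9% and 67.5% against counting errors of 8.17% and 8.93%. Its log2 fold change of -0.25 (SE 0.28) was not called (adjusted p 0.477 with limma).

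Pcdhga11, Pcdhgb6 and Pcdhgb8, A-type and B-type gamma members from the later part of the array, are given library by library, and were picked out after their values were seen. Pcdhga11 was between 1.03 and 1.25 RPKM in 6 libraries, WT replicates 2 and 8 and R6/1 replicates 1, 3, 5 and 8. It was between 2.51 and 3.33 RPKM in 10 others, and at 5.00 RPKM in WT replicate 7 and 6.06 RPKM in R6/1 replicate 9. No library lay between 1.25 and 2.51 RPKM or between 3.33 and 5.00 RPKM, and low and middle values occurred in both genotypes.

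Pcdhgb6 was also highest in WT replicate 7 within WT (3.42 RPKM) and in R6/1 replicate 9 within R6/1 (4.83 RPKM). It was lowest in WT replicate 8 (1.47 RPKM) and R6/1 replicate 8 (1.66 RPKM). Pcdhgb8 ran the other way: these libraries with the highest Pcdhga11 were its lowest, at 0.385 RPKM in WT replicate 7 and 0.612 RPKM in R6/1 replicate 9. Its highest values were 1.64 RPKM in WT replicate 2 and 1.69 RPKM in R6/1 replicate 1, both low in Pcdhga11. Pcdhga4, which lies earlier in the array, was also lowest in WT replicate 7 within WT (2.38 RPKM) and in R6/1 replicate 9 within R6/1 (2.73 RPKM). Its highest values, 4.67 RPKM in WT replicate 8 and 5.74 RPKM in R6/1 replicate 1, were in libraries low in Pcdhga11. None of these members was called between genotypes. What goes with these levels was not tested; the labels tell the RNA libraries apart only by genotype and replicate number.

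**Figure D4:**
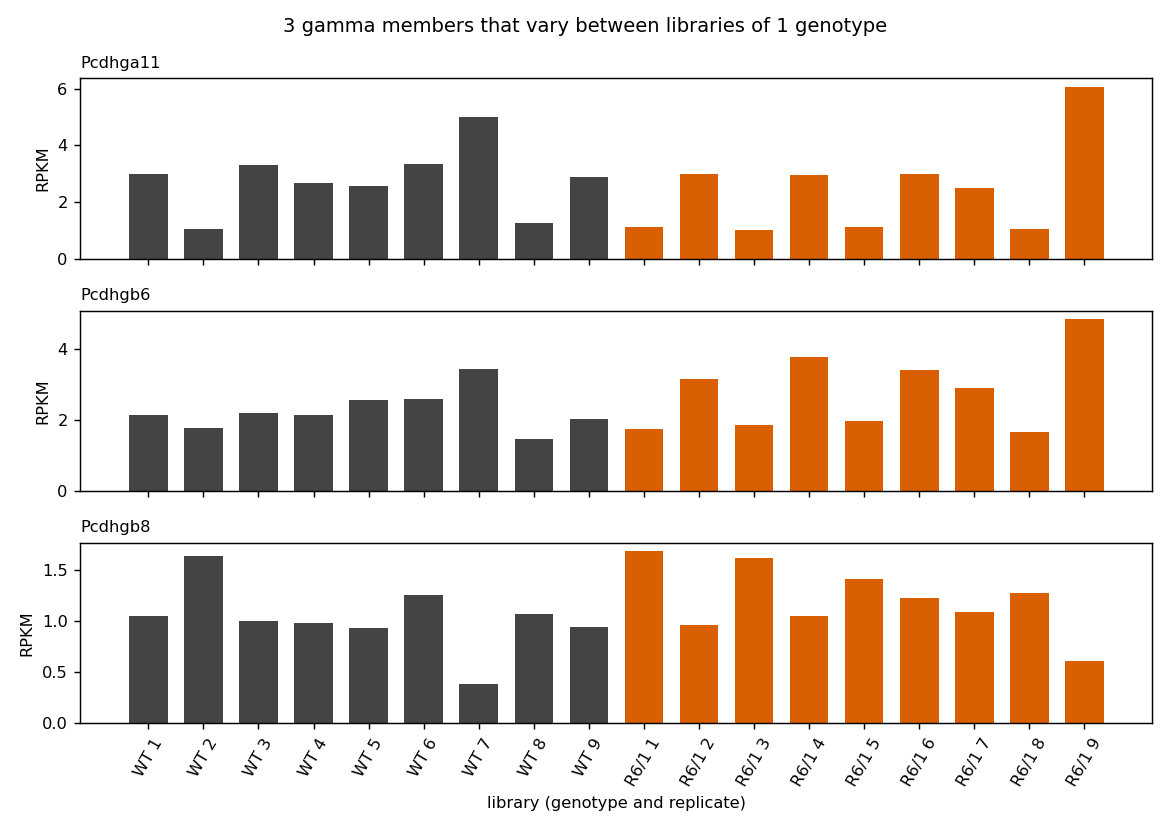
Level in RPKM (vertical axes, bars starting at 0) of Pcdhga11, Pcdhgb6 and Pcdhgb8 in each of the 18 libraries (horizontal axis, WT grey and R6/1 orange). WT replicate 7 and R6/1 replicate 9 have the highest Pcdhga11 and the lowest Pcdhgb8 of their genotype.

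Genes known to act on these promoters were examined as a list of 20 (insulator, cohesin, chromatin silencing and DNA methylation). Of 19 tested, 11 were higher in R6/1 and 0 lower (57.9% and 0%, beside 24.8% and 23.5% of all tested genes), with a median log2 fold change of 0.18. Stag2, a cohesin subunit, rose from 14.2 ± 0.615 to 17.4 ± 1.05 RPKM (mean ± SD of 9 libraries each) with no overlap, a log2 fold change of 0.28 (adjusted p 4.93e-06 with limma). Rad21, another cohesin subunit, and the cohesin loader Nipbl each rose by 0.21. Dnmt1, the maintenance DNA methyltransferase, rose by 0.27, the silencing cofactor Trim28 by 0.24 and Smchd1, a silencer of these clusters, by 0.18 (limma adjusted p between 3.15e-05 and 0.0127 for these 5). Ctcf had a log2 fold change of 0.09 and was not called (adjusted p 0.0795 with limma). It was called only without R6/1 replicate 1 and under scaling to own totals (range 0.00358 to 0.161 over all alternatives). Setdb1, a histone methyltransferase that covers the locus, was not called (log2 fold change 0.05, adjusted p 0.366 with limma), and Dnmt3b, which methylates these promoters in the embryo, lay under the filter.

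The non-clustered protocadherins, single genes of the same superfamily, showed 0 higher and 3 lower of 11 tested (median log2 fold change -0.02). The share that was lower, 27.3%, was near the 23.5% of all tested genes, and 0% were higher, beside 24.8%. Pcdh1 fell from 52.6 ± 6.37 to 36.0 ± 3.63 RPKM with no overlap, and Pcdh20 from 31.8 ± 5.63 to 22.1 ± 3.69 RPKM (mean ± SD of 9 libraries each). Their log2 fold changes were -0.54 and -0.51 (limma adjusted p 3.28e-06 and 0.000343). Of 21 genes for processing and signalling partners of protocadherins, 6 were higher and 7 lower (28.6% and 33.3%, beside 24.8% and 23.5% of all tested genes; median 0.04). Wasf1, a subunit of the WAVE complex that binds protocadherin tails, fell by 0.61 and Prkca, a kinase, by 0.62. Marcks, a kinase substrate in the pathway from gamma proteins to dendrite branching, rose by 0.39 and Nlgn2, a synaptic adhesion protein that gamma members bind, by 0.20 (limma adjusted p between 3.25e-08 and 0.000173 for these 4).

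Genes around the locus were called in both directions, at shares below those of all tested genes. Of 39 genes within 1 Mb of the clusters or between them, 35 were tested, 7 were higher and 5 lower (20% and 14.3%, beside 24.8% and 23.5% of all tested genes), with a median log2 fold change of 0.05. Hars rose by 0.38 and Wdr55 by 0.36, while Hbegf fell by 0.62 and Tmco6 by 0.59, all on the side of the alpha cluster (limma adjusted p between 7.89e-08 and 0.000253). Pcdh1, given above, lies on the gamma side. Between the clusters, Taf7 had a log2 fold change of 0.10 and was not called (limma adjusted p 0.203; called only under scaling to own totals, range 0.0406 to 0.313 over all alternatives), and Slc25a2 lay under the filter.

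Lamin B1 domains, stretches of chromatin bound to the nuclear lamina, did not touch the locus. The 3 clusters shared 0 bp with the WT list and 0 bp with the R6/1 list. The nearest domain ended 5.42 Mb before the alpha cluster in WT and 5.34 Mb before it in R6/1. On the other side, the next domain began 9.58 Mb after the gamma cluster in WT and 12.4 Mb after it in R6/1. The authors deposited 1 list per genotype, so these distances have no replicate spread.

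Prox1, which defines dentate granule neurons of the hippocampus, was present in every library (9.73 to 18.5 RPKM in WT, 8.77 to 11.5 RPKM in R6/1), and markers of hippocampal cell types moved with genotype. All 6 dentate granule neuron markers were lower in R6/1 (summed level 71.3 to 111.3 RPKM in WT, 42.3 to 53.6 RPKM in R6/1). All 5 CA3 markers, 5 of 6 CA1 markers (the sixth was higher) and 5 of 6 inhibitory neuron markers were also lower, and the summed levels did not overlap for these 3 lists. The summed ranges in WT and R6/1 were 178.9 to 315.7 and 128.6 to 167.7 RPKM for CA3, 193.1 to 269.7 and 151.9 to 167.9 RPKM for CA1, and 351.3 to 427.8 and 212.1 to 278.1 RPKM for inhibitory neurons. Calls of a lower level were also made for 5 of 6 astrocyte, 4 of 6 oligodendrocyte, 2 of 4 precursor, 3 of 6 microglia, 2 of 5 striatal and 1 of 6 meningeal markers, and for 0 of 6 endothelial and 0 of 7 choroid plexus markers. Over all tested genes, 23.5% were lower and 24.8% higher. Lower shares were 100% for dentate granule and CA3 markers, and 83.3% for CA1, inhibitory neuron and astrocyte markers. They were 66.7% for oligodendrocyte, 50% for precursor and microglia, 40% for striatal and 16.7% for meningeal markers, all on lists of few genes. The striatal sum did not overlap either (20.6 to 29.7 RPKM in WT, 14.3 to 18.2 RPKM in R6/1), while the sums of the other glial, vascular and meningeal lists did. Every one of these markers had reads in at least 1 library. In bulk tissue, fewer cells of a type and less RNA per cell cannot be told apart, and the part of cell composition in the protocadherin differences was not tested. Choroid plexus carry-over varied between libraries (summed markers 26.0 to 1078 RPKM in WT, 39.1 to 1745 RPKM in R6/1), and with Ttr, its most abundant marker, as a covariate the member counts were the same in all 3 clusters.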

How the data were processed

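The authors deposited RPKM for 24508 gene symbols in 18 RNA libraries; TopHat, DESeq2 and build mm9 are named in the submitters' processing notes, with Bowtie for the ChIP reads. The counter and annotation are not given in the sources used here. The authors' deposited table gives mean normalized counts (a signal), log2 fold changes with standard errors, a test score, and p-values. The deposited lamin B1 domain lists carry 1 score per domain, from the EDD caller per the file names; the score was not used, and how 3 replicates, run in 3 lanes each, were combined is not stated. ATAC-seq was not analysed here. The number of unused per-sample columns was 0.

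Genes averaging 0.5 RPKM or more were tested with limma 3.58.1 (lmFit and eBayes with trend, R 4.3.3) on log2(RPKM + 0.5), two-sided, with Benjamini-Hochberg adjustment over all 14446 and a threshold of 0.05. The fit was also run on simulated counts with the same dispersion for every gene, a simpler setting than these data. No result here rests on that run. Deposited values were turned into normalized counts with the authors' mean normalized counts, then divided by a step found for each library. This gave whole reads, within 0.05 of a read, for 99.9% of values below a set limit, zeros included. Library totals and reads per gene were recovered from this step, and counting errors come from these reads. Gene lengths were recovered from the ratio of normalized count to deposited value. Coordinates are from GENCODE on NCBIM37 (mm9), names and order from RefSeq. Named genes are all C-type members; per cluster the 3 highest, the lowest, and the 3 largest called changes in each direction; members without overlap; 8 regulators; the 2 largest called changes in each direction in the other lists; and genes between the clusters. Others were named after their values were seen. A gene that this rule names is not reported here. Members and gene lists were chosen with earlier results of these data known. Alternatives were other pseudocounts, filters, scalings, library weights, no trend, Xist or Ttr covariates (Xist was under 1 RPKM in every library), the replicate number as a block, the authors' deposited table and leaving out each library.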

Additional observations from a re-analysis of the deposited data

Results flagged for a closer look

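In 8 of 102 groups of 9 libraries examined, 1 end of the range held a library far from the rest, by Dixon's ratio; chance flags about 1 in 20 groups, here 5.1. Pcdhga11 and Pcdhgb6 were added to the groups examined after their values were seen, while Pcdhgb8 was already named by the rule. Pcdhga11 was at 6.06 RPKM in R6/1 replicate 9 on 475 reads, above the next R6/1 library at 3.00 RPKM. Pcdhb2 was at 2.49 RPKM in WT replicate 3 on 82 reads, above the next WT library at 1.59 RPKM. In the same library Pcdhb1 was at 0.378 RPKM on 11 reads, above the next at 0.197 RPKM. The summed gamma cluster was lowest in WT replicate 9 at 76.8 RPKM, below the next at 87.1 RPKM. Among other genes, Rad21 was high in WT replicate 2 (49.9 RPKM, next 45.1), and Marcks was low in R6/1 replicate 6 (42.5 RPKM, next 49.8). Trim28 (42.4 RPKM, next 47.3) and Wasf1 (91.4 RPKM, next 106.5) were both low in R6/1 replicate 5.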

How the results depend on the processing

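Of the values of named genes under the alternatives, 1266 kept their direction and side of the threshold, 9 lost their call, 5 gained one and 0 reversed. With a filter at a mean of 2 RPKM, the alpha cluster had 0 members higher and 1 lower, and the beta cluster 0 lower; the alpha median log2 fold change was then -0.18, since fewer genes were tested and Pcdhac2 alone was left. That median was 0.39 with a pseudocount of 0.1 RPKM and 0.17 with no filter. Under quantile normalization, and under scaling to own totals, the alpha cluster had 1 member lower and the beta cluster 0 lower. Quantile normalization also gave 6 alpha, 12 beta and 8 gamma members higher, against 5, 9 and 6 in the main fit. The cause of these shifts was not tested. Measured as the mean log2 level over members, the gamma cluster was 0.11 higher in R6/1, against a log2 ratio of sums of -0.07, because each member then counts alike. Leaving out each library gave 9 to 11 beta members higher and 0 to 1 lower, 5 to 7 gamma members higher, and no other change in these counts. With the replicate number as a block, the beta cluster had 0 members lower (Pcdhb11, limma adjusted p 0.0606) and the other counts were the same. The labels do not say that a number is shared: same-numbered libraries had correlations of deviations from -0.05 to 0.24, and only numbers 1 and 3 of 9 correlated best with their own. Members under about 1 RPKM rest on few reads per library (20 to 67 for Pcdhac1), and what size of difference this depth can show was not computed. In an alternative chosen after seeing the data, the log2 ratio of the summed C-type members was -0.10 without Pcdhgc5, against -0.41 with it.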
